A study of Mus musculus with 3 samples.

Results

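Coagulation, fibrinolysis and thrombospondin genes were followed in single-cell RNA sequencing of injured mouse liver. They are 9 of the 34099 genes in each of 3 matrices, taken by symbol: F3, F7, F10, F5, F13a1, Procr, Plau, Plaur and Thbs1. All 3 mice had a 500 mg/kg dose of acetaminophen (APAP), which in overdose kills hepatocytes. After 6 h the first was given PBS, the next native mesenchymal stromal cells (MSCs), and the last MSCs engineered to carry bispecific polyvalent peptides. Livers were taken after 4 days and digested at 37 °C, red blood cells were lysed, and 1 library per group was sequenced with 10x chemistry. Every group had the APAP injury and no uninjured liver was analysed, so each comparison is between injured livers. Strain, sex and age of the mice were not given in the sources used here.

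Clotting starts when tissue factor (F3), a membrane receptor of cells outside the blood, binds factor VII (F7). That complex activates factor X (F10), which with its cofactor factor V (F5) makes thrombin. Thrombin cuts fibrinogen to fibrin, and the transglutaminase factor XIII, whose A subunit is F13a1, crosslinks the fibrin. The endothelial protein C receptor (Procr) presents protein C for activation and so serves the anticoagulant side. Urokinase (Plau), held at the cell surface by its receptor (Plaur), turns plasminogen into the fibrin-cutting enzyme plasmin. Thrombospondin 1 (Thbs1) is a secreted matrix glycoprotein, stored in platelets and also made by monocytes and stromal cells, that can activate latent TGF-beta. Hepatocytes make most of the circulating clotting factors, whereas factor XIII-A is known from monocytes, macrophages and platelets.

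After filtering, 9529 cells with 71733746 unique molecular identifiers (UMIs, 1 per counted transcript) were kept in the PBS library, 9158 with 68113492 in the native MSC library and 9136 with 50383631 in the engineered MSC library. Clusters were named X-like from marker genes that exclude the 9 genes. Levels are UMIs of a gene summed over the cells of a class and scaled to the total UMIs of that class as CPM, with exact Poisson 95% intervals in parentheses. A ratio has an exact conditional binomial 95% interval. All intervals cover counting error only, and with 1 mouse in each group a mouse, its library and its treatment cannot be told apart and no test was made. The engineered MSC library formed mostly its own clusters, such as 32 in sinusoidal endothelium-like cells and 35 in monocyte-like cells. For several classes, values within shared clusters are therefore given beside those of the whole class. Between 70 and 74 kept barcodes of each library also occurred in another library. RNA set free from broken cells differed between libraries: the summed level of 11 abundant hepatocyte transcripts in B cell-like cells, which do not make them, was 534 CPM in PBS, 2119 CPM in native MSC and 9440.3 CPM in engineered MSC, with none of the 11 at 0. Transcripts of other cells had another order, highest in native MSC. In the main B cell-like cluster of each library, 4 neutrophil transcripts summed to 63.9 CPM in PBS, 671 CPM in native MSC and 52.0 CPM in engineered MSC. There 4 red cell transcripts summed to 20.1, 3231 and 183 CPM.

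The genes lay in different classes of cells. Of all F13a1 UMIs in the PBS library 82.0% lay in monocyte-like cells, as did 78.6% of F10, 58.1% of F5 and 77.2% of Thbs1. Macrophage-like cells held 75.5% of F7 and 71.3% of Plau, stellate cell or fibroblast-like cells 41.7% of F3, and sinusoidal endothelium-like cells 38.3% of Procr. Plaur was spread more widely, with 43.6% in monocyte-like, 23.5% in macrophage-like and 12.6% in neutrophil-like cells. The engineered MSC library had 239 monocyte-like cells against 2638 in PBS and 2449 in native MSC, and its F13a1 lay mostly in macrophage-like (41.6%) and cycling cells (25.7%). Whole-library levels therefore mix level with cell makeup: F13a1 stood at 188 CPM in PBS, 503 CPM in native MSC and 103 CPM in engineered MSC, although its level within monocyte-like cells was lowest in PBS.

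**Figure D1:**
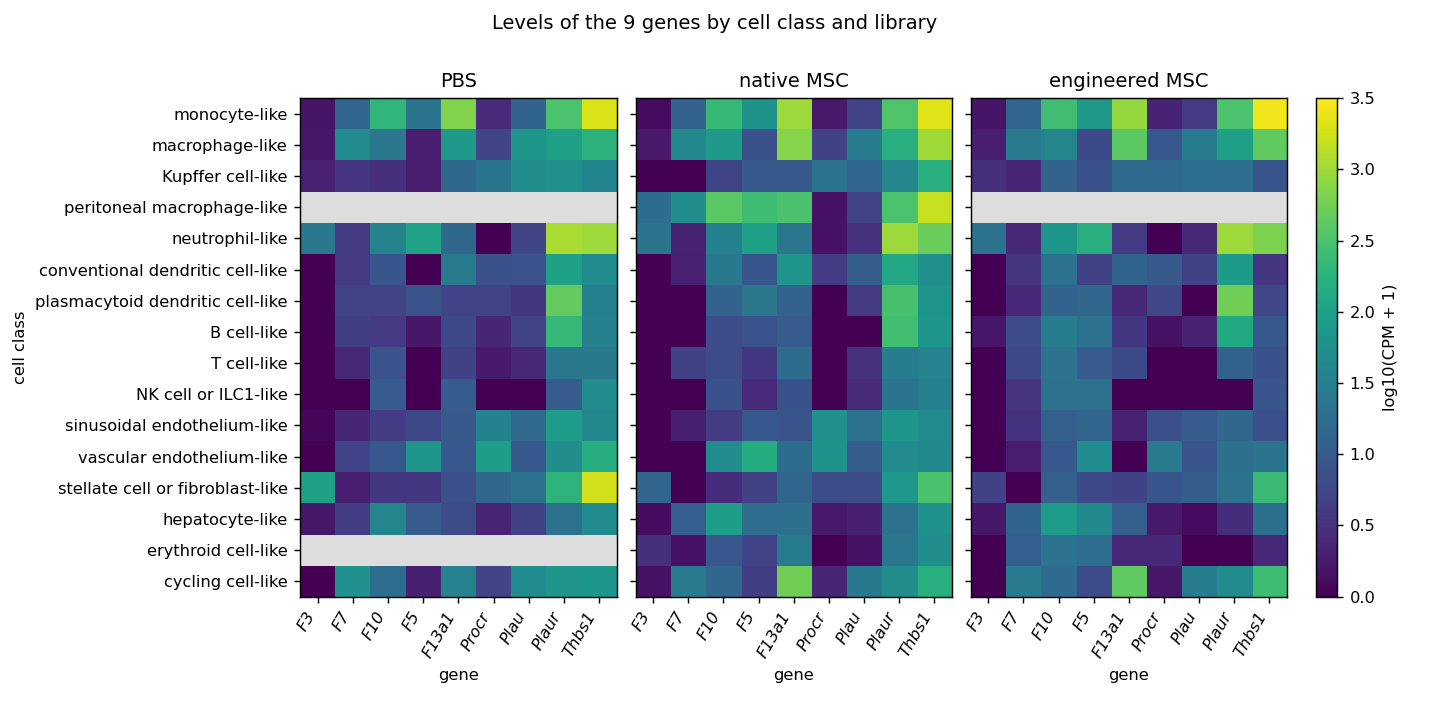
Levels of the 9 genes (columns) in 16 cell classes (rows) of the 3 libraries (panels), as log10(CPM + 1); grey marks classes with under 20 cells, and colours should be read down a column since levels of different genes are not comparable. F13a1 is bright in monocyte-like cells of all 3 libraries, F3 in stellate cell or fibroblast-like cells of PBS, and Thbs1 is darker in engineered MSC than in PBS in the classes outside monocyte-like, macrophage-like and cycling cells.

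**Figure D2:**
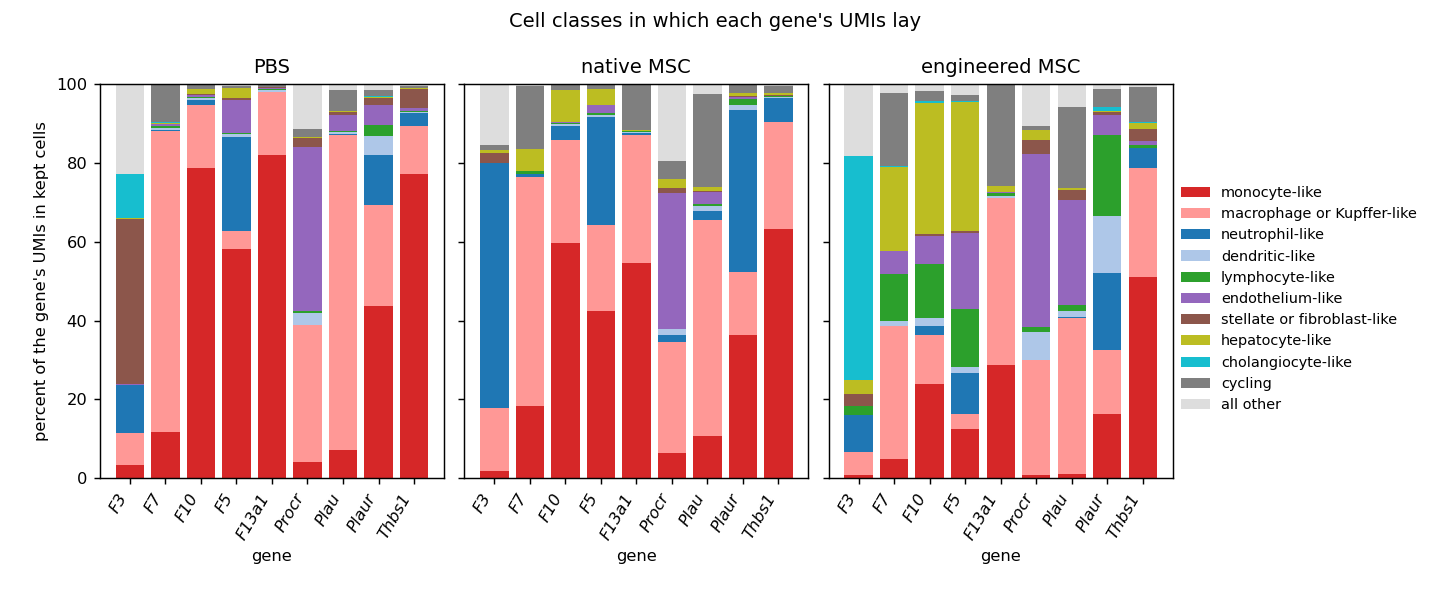
Percent of each gene's UMIs (vertical axis, 0 to 100) that lay in each group of cell classes (colours) in the 3 libraries (panels). F10 and F5 shift from monocyte-like cells in PBS to hepatocyte-like cells in engineered MSC, where these hold 33.3% and 32.6% of the UMIs.

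A gene was taken as past 2-fold in a class when its CPM ratio reached 2 or 0.5 and both libraries together held 20 UMIs or more, in classes of at least 50 cells in both. In engineered MSC against PBS, 62 combinations of gene and class could be read over 10 classes. Of these, 13 were at least 2-fold higher, against 8.85% of all gene and class combinations, and 20 at least 2-fold lower, against 6.86%. In native MSC against PBS, over 8 classes, 12 of 46 were higher (all genes, 5.62%) and 4 of 46 lower (all genes, 7.67%). In engineered against native MSC, over 10 classes, 8 of 53 were higher (all genes, 9.82%) and 19 of 53 lower (all genes, 5.23%). The 3 comparisons share libraries and are not independent. The share of the 9 genes past the fold was above that of all genes in each direction. In native MSC lower, at 8.70%, and engineered against native MSC higher, at 15.1%, it lay nearer to the background. The counts include classes in which the part of free RNA was not tested. In engineered against native MSC, B cell-like cells gave 3 of the lower combinations (all genes, 2.83%) and 2 of the higher (9.84%). Erythroid cell-like cells gave 3 of the lower (25.8%) and 2 of the higher (17.1%). Within single classes, engineered MSC against PBS had 4 of 5 genes lower in stellate cell or fibroblast-like cells (all genes, 10.4%) and none higher (12%), and 4 of 8 lower in sinusoidal endothelium-like cells (9.56%) with 2 of 8 higher (11.7%). The latter cells lay in cluster 7 in PBS but to 95.8% in cluster 32 in engineered MSC, so their counts mix level with cluster makeup.

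Promoters of 7 of the 9 genes were found in the RefSeq table of build GRCm38.p6, as 250 bases before each annotated start. Those of F3, Plaur and Procr are shown because these genes were lower in stromal or endothelial classes of engineered MSC, and those of F7 and F10 because the genes stand side by side on chromosome 8 and differed in the class that held them. Capitals mark matches on either strand to GAGGAA (a PU.1 motif of myeloid cells), TGANTCA (AP-1), TTGCNNAA (C/EBP) and CAAAGTCC (HNF4, a hepatocyte factor). Coordinates are GRCm38.p6, and all 5 lie on the plus strand.
F3, chr3:121723287-121723536: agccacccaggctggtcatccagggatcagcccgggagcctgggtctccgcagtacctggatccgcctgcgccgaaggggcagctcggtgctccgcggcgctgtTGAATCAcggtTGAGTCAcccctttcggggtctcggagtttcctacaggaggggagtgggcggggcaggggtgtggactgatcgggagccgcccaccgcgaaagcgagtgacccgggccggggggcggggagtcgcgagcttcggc
Plaur, chr7:24462233-24462482: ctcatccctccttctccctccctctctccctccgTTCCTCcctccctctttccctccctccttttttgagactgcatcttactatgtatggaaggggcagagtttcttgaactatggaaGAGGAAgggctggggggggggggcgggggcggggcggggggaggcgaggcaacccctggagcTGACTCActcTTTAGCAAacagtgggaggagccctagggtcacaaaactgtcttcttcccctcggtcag
Procr, chr2:155750967-155751216: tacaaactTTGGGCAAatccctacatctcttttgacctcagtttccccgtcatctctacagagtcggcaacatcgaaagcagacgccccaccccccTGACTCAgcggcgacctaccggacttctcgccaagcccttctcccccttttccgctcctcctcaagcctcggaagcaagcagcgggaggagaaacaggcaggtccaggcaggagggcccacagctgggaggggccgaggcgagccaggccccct
F7, chr8:13025784-13026033: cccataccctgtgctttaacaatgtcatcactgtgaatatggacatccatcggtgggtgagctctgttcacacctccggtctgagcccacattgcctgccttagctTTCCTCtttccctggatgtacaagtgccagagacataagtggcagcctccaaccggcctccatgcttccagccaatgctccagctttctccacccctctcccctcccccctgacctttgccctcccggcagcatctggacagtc
F10, chr8:13037058-13037307: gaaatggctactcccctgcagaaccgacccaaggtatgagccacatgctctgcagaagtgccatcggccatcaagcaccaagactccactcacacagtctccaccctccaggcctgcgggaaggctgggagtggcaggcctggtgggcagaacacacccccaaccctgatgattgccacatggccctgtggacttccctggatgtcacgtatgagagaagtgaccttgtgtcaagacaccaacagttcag
The F3 window holds 2 AP-1 matches, whose first bases lie at -146 and -135 from the start. Plaur holds 1 AP-1 match at -69 with a C/EBP match at -59 and 2 PU.1 matches, and Procr 1 AP-1 match at -154 and a C/EBP match at -242. F7 has 1 PU.1 match, on the minus strand at -144, and the F10 window has none of these letters. Among 32851 promoter windows of this length, TGANTCA occurs in 6.75%, GAGGAA in 23.3%, TTGCNNAA in 9.56% and CAAAGTCC in 1.20%. A match is a description of letters and not of binding.

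Tissue factor, the trigger of the cascade, was carried in PBS by stellate cell or fibroblast-like cells (cluster 17). There F3 stood at 100.2 CPM (82.6 to 121) in PBS, at 12.9 CPM (5.20 to 26.6) in native MSC and at 3.89 CPM (1.06 to 9.95) in engineered MSC. The PBS level was the highest and its interval overlapped neither of the others. In engineered MSC F3 was 25.8-fold lower than in PBS (9.80 to 96.2). These values rest on few cells: 113 UMIs in 23 of 93 cells of PBS, with up to 27 in 1 cell, 7 UMIs in 7 of 24 cells of native MSC, and 4 UMIs in 3 of 84 cells of engineered MSC. The size of the gap also depended on the cells taken into the class, from a log2 ratio of -2.19 at a Leiden resolution of 0.5 to -5.56 in cells without a UMI of 6 platelet genes (Pf4 and Ppbp not among them), against -4.69 as given here. Median depth was 11190.0 UMIs per cell in PBS, 23695.5 in native MSC and 9138 in engineered MSC.

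F3 was also read in neutrophil-like cells, at 24.6 CPM (16.9 to 34.5) in PBS, 21.5 CPM (18.4 to 24.9) in native MSC and 19.4 CPM (10.3 to 33.1) in engineered MSC. The 3 intervals overlapped, but most of these cells lay in a different cluster in each library. Within cluster 11 F3 was 30.3, 32.04 and 44.8 CPM with overlapping intervals, the last from 7 UMIs, and within cluster 2 it was 3.52 CPM in PBS, from 1 UMI, and 16.5 CPM in native MSC, a ratio of 4.69 (0.8201 to 187). A cluster with Mgp, Igfbp5 and Dcn among its leading genes was left unnamed. Its best list was that of mesothelial cells, but its leading genes were of another class. F3 there was 90.6 CPM (68.9 to 117) in PBS, 60.3 CPM (42.7 to 82.8) in native MSC and 71.7 CPM (46.4 to 106) in engineered MSC. The low level in engineered MSC seen in cluster 17 was thus absent from this cluster. In 36 cholangiocyte-like cells of engineered MSC F3 stood at 95.1 CPM (75.1 to 119), with a UMI in 26 of them. No F3 UMI was found in T cell-like or dendritic cell-like cells of any library.

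Factor VII was found less in hepatocyte-like cells than in macrophage-like ones. F7 in macrophage-like cells was 47.4 CPM (44.9 to 50.0) in PBS, 41.9 CPM (38.6 to 45.3) in native MSC and 27.5 CPM (23.2 to 32.3) in engineered MSC, and 1.72-fold lower (1.45 to 2.06) in engineered MSC than in PBS. Unlike F13a1 and Thbs1, it was alike in both macrophage-like clusters of PBS, at 47.5 CPM in cluster 3 and 45.2 CPM in cluster 20. In hepatocyte-like cells F7 was 3.28 CPM (1.06 to 7.65) in PBS, 9.99 CPM (7.74 to 12.7) in native MSC and 12.5 CPM (10.1 to 15.3) in engineered MSC, lowest in PBS. Most hepatocyte-like cells lay in cluster 12 in PBS (98.3%) and native MSC (97.9%), but in cluster 31 in engineered MSC (67.2%). Only 145 of the 2234 hepatocyte-like cells of engineered MSC lay in cluster 12, so their class values mix level with cluster makeup. The median mitochondrial share of UMIs was 0.116% in cluster 12 and 0.637% in cluster 31. It was 2.57% in hepatocyte-like cluster 25, nearly all of engineered MSC, and 3.25% in macrophage-like cluster 3. Whether hepatocyte-like levels of any gene are those of whole cells was not tested. Monocyte-like cells stood between 11.6 and 13.04 CPM in the 3 libraries, with overlapping intervals.

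Factor X, encoded next to F7, had another order. In each library F10 was higher in monocyte-like than in hepatocyte-like or macrophage-like cells: monocyte-like cells stood at 202 CPM (195 to 209) in PBS, 223 CPM (216 to 230) in native MSC and 263 CPM (239 to 288) in engineered MSC. The intervals did not overlap, yet the 3 levels of the class spanned less than 1.5-fold. The clusters differed from it. Within monocyte-like cluster 9, shared by all libraries, the values were 289 CPM (273 to 306), 260.1 CPM (252 to 268) and 314 CPM (278 to 353), and native MSC was the lowest. In cluster 1 F10 was 195 CPM in PBS, 89.99 CPM in native MSC and 241 CPM in engineered MSC, with native MSC 2.17-fold below PBS (1.87 to 2.53). In cluster 6 it was 122 CPM in PBS and 64.1 CPM in native MSC, a fold of 1.91 (1.56 to 2.36). In hepatocyte-like cells F10 was 38.0 CPM (28.9 to 49.1) in PBS, 88.0 CPM (81.0 to 95.4) in native MSC and 82.0 CPM (75.6 to 88.7) in engineered MSC. Native MSC was 2.31-fold higher than PBS (1.77 to 3.09) and engineered MSC 2.16-fold (1.65 to 2.87). As for F7, the engineered MSC value came mostly from clusters other than those of PBS. With each cell counted alike, its log2 ratio to PBS was 1.90 and not 1.11.

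F10 also appeared in classes that are not known to make it. In B cell-like cells it was 2.78 CPM in PBS, 5.62 CPM in native MSC and 28.1 CPM (23.5 to 33.2) in engineered MSC, and in T cell-like cells 6.93, 5.32 and 20.7 CPM. Alb, the most abundant hepatocyte transcript, was 199, 789 and 3299 CPM in the same B cell-like cells. With doublets kept, which redrew the B cell-like class, the log2 ratio of engineered MSC to PBS was -0.50 and not 3.34. The part of free RNA in the higher F10 and F5 of lymphocyte-like, Kupffer cell-like and sinusoidal endothelium-like cells of engineered MSC was not tested. Thinned to 1000 UMIs per cell, F10 was read in 14.2% of monocyte-like cells of engineered MSC (56.5% unthinned, 232 of 239 cells deep enough) against 2.81% of B cell-like cells (8.11% unthinned, 1565 of 1615 cells), with medians of 7153 and 2787 UMIs per cell, so the monocyte-like level stood above that background.

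Factor V was led by neutrophil-like cells in PBS and engineered MSC. F5 stood there at 104 CPM (87.7 to 123) in PBS, 95.3 CPM (88.6 to 102) in native MSC and 158 CPM (129 to 191) in engineered MSC, the last without overlap with the others. Most neutrophil-like cells lay in cluster 11 in PBS, cluster 2 in native MSC and cluster 26 in engineered MSC. Within cluster 11 F5 was 83.3, 97.3 and 109 CPM with overlapping intervals, and within cluster 2 it was 179.5 CPM (134 to 236), 94.2 CPM (86.2 to 103) and 235 CPM (169 to 318), with native MSC 1.91-fold below PBS (1.40 to 2.54). In monocyte-like cells it was 21.1 CPM (19.0 to 23.5) in PBS, 60.1 CPM (56.7 to 63.7) in native MSC and 75.9 CPM (63.3 to 90.2) in engineered MSC, so both libraries with MSCs stood above PBS, by 2.85-fold (2.52 to 3.22) and 3.59-fold (2.91 to 4.41). Part of that gap followed the clusters. In cluster 9 F5 was 48.6 CPM (42.1 to 55.7), 72.3 CPM (68.1 to 76.6) and 104 CPM (84.0 to 128), where engineered MSC was 2.15-fold (1.66 to 2.76) and native MSC 1.49-fold (1.28 to 1.74) above PBS. Cluster 1, mostly of PBS, had 12.7 CPM. The log2 ratio of native MSC to PBS was 0.12 in cluster 1 and 0.36 in cluster 6, against 1.51 for the class.

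Endothelial cells carried F5 unevenly. In sinusoidal endothelium-like cluster 7 it was 4.65 CPM (3.22 to 6.50) in PBS, 8.46 CPM (3.65 to 16.7) in native MSC and 60.3 CPM (46.5 to 76.9) in engineered MSC, a ratio of 12.97 (8.44 to 20.3) to PBS. The 65 UMIs of engineered MSC came from 13 of 67 cells, up to 25 in 1 cell. Cluster 32, which holds 1546 of the 1613 sinusoidal endothelium-like cells of that library, had 7.62 CPM (6.01 to 9.52). The hepatocyte transcripts summed to 1678 CPM in cluster 7 of engineered MSC and to 3958 CPM in cluster 32, and their part in F5 was not tested. In vascular endothelium-like cells F5 was 65.7 CPM in PBS, all 16 UMIs from 1 cell, 145 CPM (106 to 194) in native MSC and 49.3 CPM (37.1 to 64.1) in engineered MSC.

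Factor XIII-A, which crosslinks fibrin, had the largest share of its UMIs in monocyte-like cells in PBS. F13a1 stood there at 682 CPM (669 to 695) in PBS, 961 CPM (947 to 975) in native MSC and 889.5 CPM (845 to 936) in engineered MSC. PBS was the lowest and native MSC the highest, without overlap. Within cluster 9 the gap shrank to 1006 CPM (976 to 1037) in PBS, 1060.0 CPM (1044 to 1076) in native MSC and 1074 CPM (1007 to 1145) in engineered MSC, and the ratio of engineered MSC to PBS was 1.07 (0.994 to 1.15). Cluster 1, with 1202 cells of PBS and 232 of native MSC, had 641 and 599.9 CPM, so the lower class level of PBS went with its makeup of clusters. After thinning, an F13a1 UMI was found in 38.6% of monocyte-like cells in PBS, 52.0% in native MSC and 44.0% in engineered MSC (74.2%, 88.1% and 73.6% unthinned), against 0.533%, 0.890% and 0.319% of B cell-like cells (1.17%, 1.75% and 0.743% unthinned). Of monocyte-like cells, 2541, 2364 and 232 were deep enough, with median depths of 6159, 8111 and 7153 UMIs, and of B cell-like cells 563, 337 and 1565, with 2229, 2295 and 2787 UMIs.

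**Figure D3:**
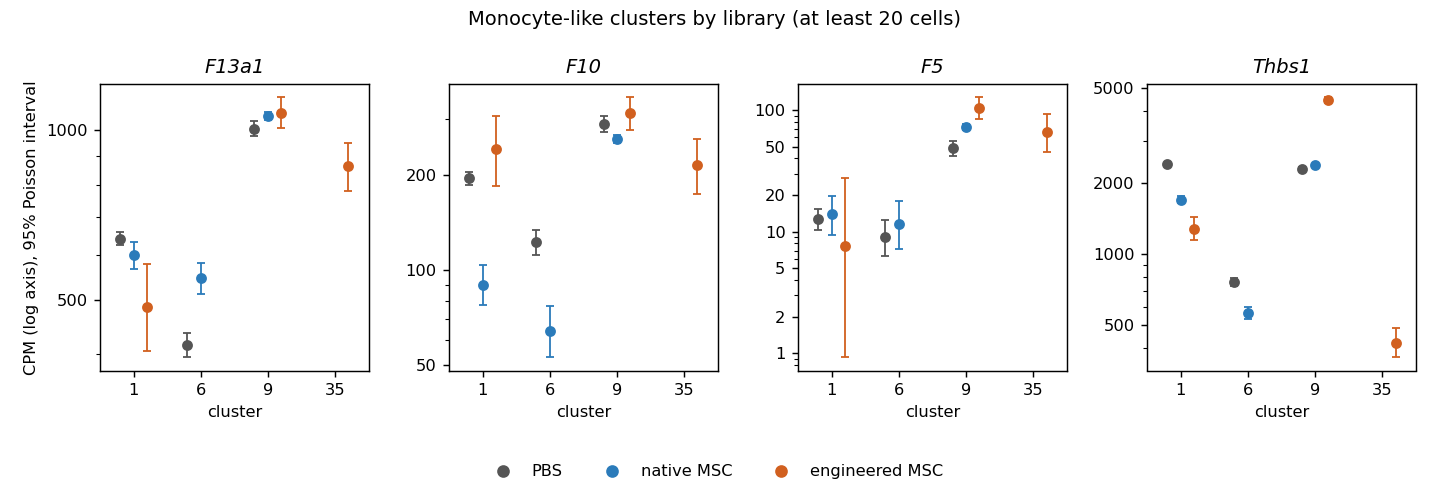
Levels of F13a1, F10, F5 and Thbs1 (panels, CPM on a log axis with 95% Poisson intervals) in the 4 monocyte-like clusters by library (colours), where a library had at least 20 cells. In cluster 9 F13a1 lies between 1006 and 1074 CPM in all 3 libraries, while Thbs1 of engineered MSC lies at 4453 CPM, above the other libraries.

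In macrophage-like cells the whole class and its clusters gave different pictures. Over the class F13a1 was 73.8 CPM (70.7 to 77.1) in PBS, 727 CPM (713 to 741) in native MSC and 408 CPM (391 to 425) in engineered MSC, so PBS was far below both. Cluster 3, with Gpnmb and Mmp12 among its leading genes, held 1926 of the 2049 cells of PBS, and cluster 20, led by Ppbp, Spp1 and Pf4, held 1125 of 1153 in native MSC and 396 of 407 in engineered MSC. F13a1 was itself among the 10 leading genes of cluster 20, so its difference between the clusters is not a separate result. Within cluster 20 it stood at 580.0 CPM (531 to 632) in PBS, 743 CPM (729 to 758) in native MSC and 428 CPM (410 to 446) in engineered MSC, so engineered MSC was the lowest of the 3, 1.36-fold below PBS (1.23 to 1.49). The 123 cells of PBS in that cluster had a median of 7353 UMIs, against 11703 and 11067 in the other libraries.

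Other members turned likewise in cluster 20. Thbs1 over the macrophage-like class was 174 CPM (169 to 179) in PBS, 995 CPM (978 to 1011) in native MSC and 437 CPM (419 to 455) in engineered MSC, lowest in PBS. With each cell counted alike, the log2 ratio of engineered MSC to PBS was 0.73 and not 1.33, under 2-fold. Within cluster 20 it was 1874 CPM (1786 to 1966), 1024 CPM (1007 to 1041) and 457 CPM (438 to 476), highest in PBS, and engineered MSC was 4.10-fold below PBS (3.85 to 4.37). F10 over the class was 23.5, 74.5 and 38.4 CPM, and within cluster 20 187 CPM (160.3 to 218), 75.4 CPM (70.9 to 80.1) and 39.8 CPM (34.5 to 45.7), so here too the order was turned. Plaur was 259 CPM (227 to 294), 158 CPM (151 to 164) and 100.3 CPM (91.8 to 109) in cluster 20, highest in PBS. Over the whole class, engineered MSC against PBS had 3 of the 9 genes at least 2-fold higher (all genes, 8.09%) and 1 lower (5.07%), and native MSC against PBS had 4 of 9 higher (6.72%) and 1 lower (8.36%).

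Platelets carry F13a1 and Thbs1, and genes of a platelet list were read in cluster 20. Of 8 platelet genes, 4 were at 0 in PBS, 2 in native MSC and 3 in engineered MSC, and their sums were 792, 2061 and 1447 CPM, mostly Pf4. Cluster 3 of PBS had 608 CPM with none at 0. Leaving out cells with a UMI of 6 of these genes, Pf4 and Ppbp not among them, kept 152 log2 ratios, over all members and classes, within their counting intervals. It moved 6 and reversed none. Of macrophage-like cells it dropped 72 of 2049 in PBS, 34 of 1153 in native MSC and 9 of 407 in engineered MSC. With so few cells dropped and Pf4 not used, it cannot show the part of adhering platelets in the F13a1 and Thbs1 levels, which was not tested. Cycling cells, a mixed class that was not compared as a type, had F13a1 at 34.3 CPM in PBS, 549.8 CPM in native MSC and 444 CPM in engineered MSC, in the same order as the macrophage-like class.

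**Figure D4:**
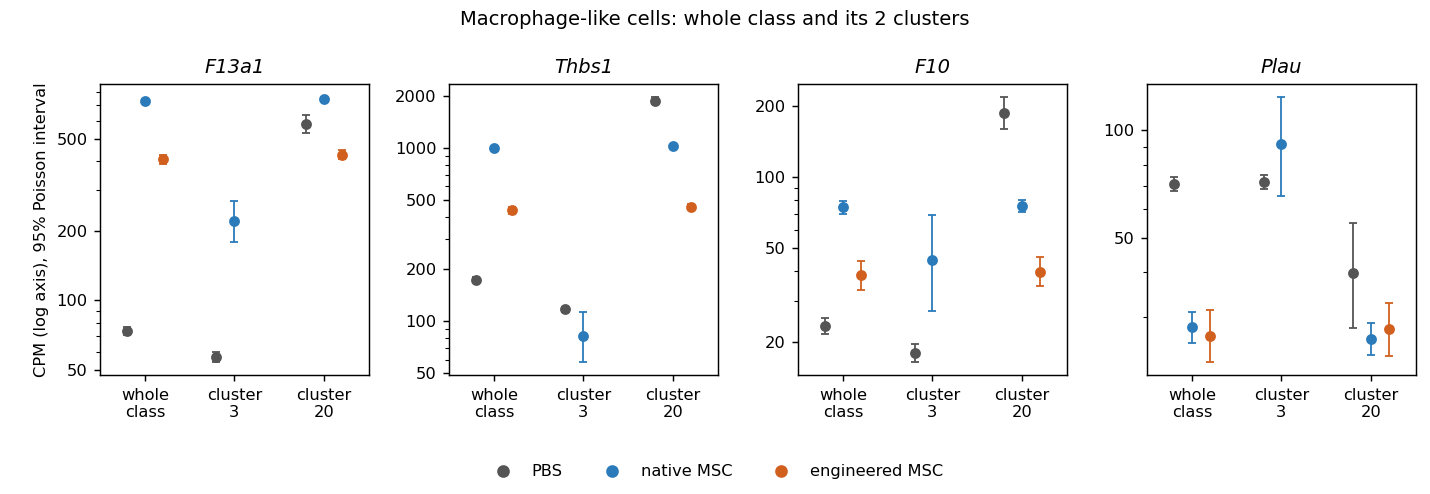
Levels of F13a1, Thbs1, F10 and Plau (panels, CPM on log axes with 95% Poisson intervals) in the macrophage-like class and in its clusters 3 and 20 by library (colours); a library with under 20 cells in a cluster is not drawn. PBS is lowest for F13a1, Thbs1 and F10 over the whole class, but within cluster 20 it is highest for Thbs1 and F10.

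The protein C receptor, a protein of endothelial cells, was highest in sinusoidal endothelium-like cells in PBS and native MSC among classes of at least 50 cells, but in engineered MSC these cells came after vascular endothelium-like, Kupffer cell-like, conventional dendritic cell-like, macrophage-like and stellate cell or fibroblast-like cells. Procr in sinusoidal endothelium-like cells was 33.6 CPM (29.6 to 38.1) in PBS, 58.5 CPM (44.3 to 75.8) in native MSC and 6.17 CPM (4.80 to 7.81) in engineered MSC. Engineered MSC was lowest, 5.45-fold below PBS (4.16 to 7.23). Cluster 7, which holds nearly all such cells of the other libraries, had 33.6 CPM in PBS, 60.3 CPM (45.7 to 78.1) in native MSC and 28.8 CPM (19.5 to 40.8) in engineered MSC, and there the ratio of engineered MSC to PBS was 0.855 (0.569 to 1.25). The low class value thus came from cluster 32, at 3.76 CPM (2.66 to 5.16), where the other libraries had at most 4 cells. In vascular endothelium-like cells Procr was 90.4 CPM (56.6 to 137) in PBS, 61.2 CPM (36.8 to 95.5) in native MSC and 26.0 CPM (17.4 to 37.3) in engineered MSC, from 40, 37 and 153 cells. Kupffer cell-like cells carried it at 21.8 CPM (17.8 to 26.5) in PBS, 21.4 CPM (6.94 to 49.9) in native MSC and 14.7 CPM (9.09 to 22.5) in engineered MSC, with overlapping intervals. The native MSC value there rests on 5 UMIs of 30 cells.

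Urokinase, the activator of plasminogen, was lower in macrophage-like cells of both libraries with MSCs. Plau was 70.7 CPM (67.6 to 73.9) in PBS, 28.0 CPM (25.4 to 30.9) in native MSC and 26.6 CPM (22.4 to 31.3) in engineered MSC, or 2.52-fold (2.27 to 2.81) and 2.66-fold (2.24 to 3.18) below PBS. The intervals of native and engineered MSC overlapped. Within cluster 20 the gap was smaller, with 39.7 CPM (27.8 to 55.0) in PBS, 26.0 CPM (23.4 to 28.8) in native MSC and 27.7 CPM (23.3 to 32.7) in engineered MSC. Plau kept its direction in the other phagocytes: Kupffer cell-like cells had 51.4 CPM (45.1 to 58.4) in PBS and 18.2 CPM (11.9 to 26.7) in engineered MSC, 2.83-fold lower (1.88 to 4.42), and monocyte-like cells 12.2, 4.16 and 2.96 CPM in PBS, native MSC and engineered MSC. In cluster 9 alone, native MSC was 2.77-fold below PBS (1.71 to 4.45), but the fold was 1.25 (0.799 to 2.03) in cluster 1, the main monocyte-like cluster of PBS, and 1.87 (1.004 to 3.74) in cluster 6.

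The urokinase receptor followed neutrophil-like cells. Plaur stood there at 1124 CPM (1068 to 1182) in PBS, 958 CPM (937 to 979.9) in native MSC and 969.5 CPM (896 to 1047) in engineered MSC, all within 1.5-fold. Monocyte-like cells had 322, 346 and 324 CPM in PBS, native MSC and engineered MSC, and plasmacytoid dendritic cell-like cells 453, 306 and 543 CPM. Macrophage-like cells had 100.7, 157 and 96.8 CPM, and B cell-like cells 214, 274 and 131 CPM, so none of these 5 classes passed 2-fold in engineered MSC against PBS. Plaur was past 2-fold lower there in 4 classes. Kupffer cell-like cells had 55.5 CPM (49.0 to 62.8) in PBS and 17.5 CPM (11.3 to 25.8) in engineered MSC. Stellate cell or fibroblast-like cells had 180.1 CPM (156 to 207) in PBS, 72.0 CPM (51.2 to 98.5) in native MSC and 19.4 CPM (11.9 to 30.02) in engineered MSC, 9.26-fold below PBS (5.84 to 15.5). Sinusoidal endothelium-like cells had 82.2 CPM (75.7 to 89.0), 69.8 CPM (54.2 to 88.5) and 13.5 CPM (11.4 to 15.8), a fold of 6.09 below PBS (5.08 to 7.32), which was 1.64-fold (1.24 to 2.21) within cluster 7. In hepatocyte-like cells Plaur was 19.7 CPM in both PBS and native MSC and 1.87 CPM (1.02 to 3.13) in engineered MSC. The whole-library level of Plaur was also lowest in engineered MSC, at 167 CPM in PBS, 272 CPM in native MSC and 66.5 CPM in engineered MSC. T cell-like cells had 23.9, 29.8 and 11.1 CPM. The part of free RNA in the 4 lower classes was not tested.

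Thrombospondin 1 was high in monocyte-like cells of all libraries. Thbs1 stood there at 1979 CPM (1957 to 2000.5) in PBS, 2124 CPM (2104 to 2145) in native MSC and 2679 CPM (2601 to 2758) in engineered MSC. The class values hid a split in engineered MSC: cluster 9 had 4453 CPM (4315 to 4594) there, against 2287 CPM in PBS and 2367 CPM in native MSC, and cluster 35, seen in that library, had 423 CPM (366 to 486). In cluster 1, where Thbs1 is among the 10 leading genes, the order was the other way round, with 2397 CPM in PBS, 1694 CPM in native MSC and 1280.5 CPM (1147 to 1425) in engineered MSC. Neutrophil-like cells had 979 CPM (927 to 1034) in PBS, 499 CPM (484 to 515) in native MSC and 651 CPM (591 to 715) in engineered MSC, but within cluster 11 engineered MSC was highest at 1780.02 CPM (1577 to 2002), above 1102 CPM in PBS and 1211 CPM in native MSC.

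Outside monocyte-like, macrophage-like, neutrophil-like and cycling cells, Thbs1 was lower in engineered MSC than in PBS in each class with at least 50 cells in both libraries. In stellate cell or fibroblast-like cells it stood at 1803 CPM (1726 to 1883) in PBS, 312 CPM (267 to 363) in native MSC and 246 CPM (217 to 278) in engineered MSC, with PBS far above both. Engineered MSC was 7.33-fold below PBS (6.43 to 8.39), and a UMI was found in 69 of 93, 19 of 24 and 28 of 84 cells. Sinusoidal endothelium-like cells had 42.3 CPM (37.7 to 47.2), 47.2 CPM (34.6 to 63.0) and 6.08 CPM (4.72 to 7.71). Within cluster 7 Thbs1 of engineered MSC was still 6.51-fold below PBS (3.12 to 16.3), unlike Procr. Conventional dendritic cell-like cells had 49.3, 56.1 and 2.58 CPM, a fold of 19.1 below PBS (7.27 to 71.2), whose log2 ratio of -4.25 ran from -1.53 to -5.62 as other settings redrew that class, and Kupffer cell-like cells 37.2, 163 and 6.996 CPM, a fold of 5.31 (2.82 to 11.3). The native MSC value of Kupffer cell-like cells rests on 38 UMIs of 30 cells, under the minimum of 50. B cell-like cells had 32.6, 67.5 and 8.32 CPM, and T cell-like cells 24.6, 34.6 and 6.37 CPM. Lymphocytes are not known as a source of Thbs1, and the low values move with the whole-library level of Thbs1, 579.9 CPM in PBS, 959 CPM in native MSC and 176 CPM in engineered MSC. The part of free RNA from monocyte-like cells in these classes was not tested.

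In stellate cell or fibroblast-like cells, 4 of the genes were thus low together in engineered MSC: F3, Thbs1, Plaur and Plau, the last at 19.5 CPM (12.2 to 29.5) in PBS and 9.72 CPM (4.66 to 17.9) in engineered MSC, 2.01-fold lower with an interval (0.912 to 4.75) that includes equality. Genes of a fixed list for stress from tissue digestion were mostly higher there, and the part of digestion in these levels was not tested. Of 12 such genes 9 were at least 2-fold higher in engineered MSC than in PBS (all genes, 12%) and none lower (10.4%), with a median log2 ratio of 1.29 against -0.02 for all genes. Among them were the AP-1 subunits Fos, at 539 CPM in PBS, 1016 CPM in native MSC and 1758 CPM in engineered MSC, and Jun, at 702, 977 and 1574 CPM. Thbs2, the thrombospondin of matrix-making cells, was 23.9 CPM in PBS, 57.3 CPM in native MSC and 109 CPM in engineered MSC. The class has 24 cells in native MSC, too few for the comparison, and a difference in the kind of stromal cell caught cannot be told apart from one in level.

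**Figure D5:**
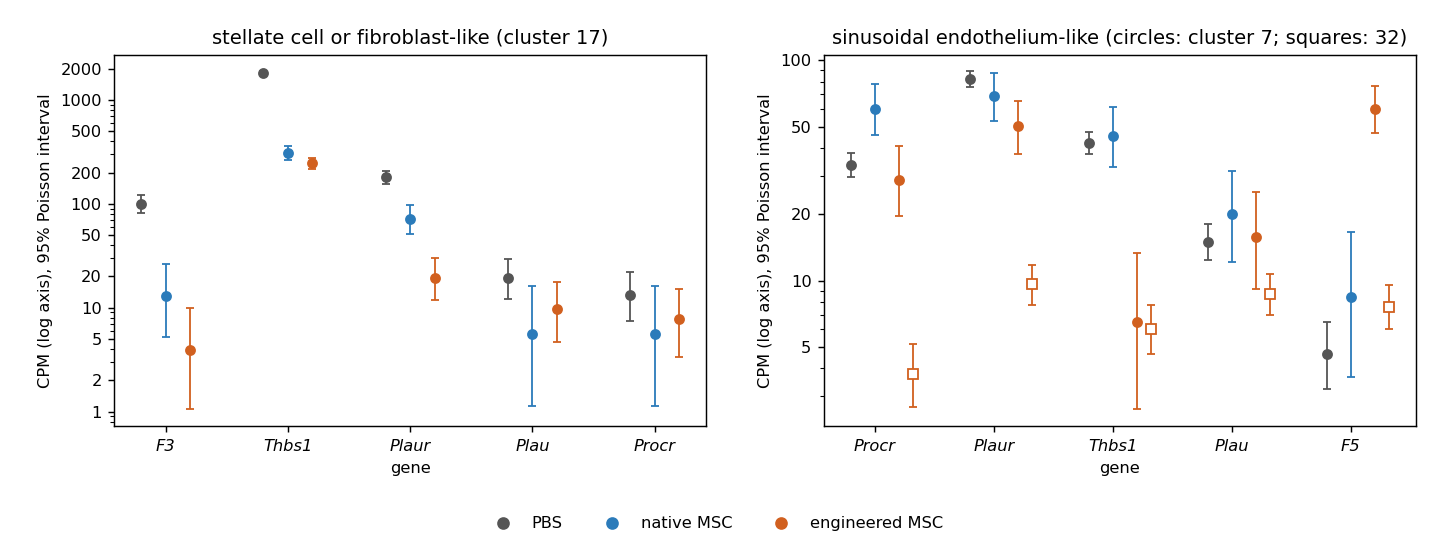
Levels (CPM on log axes with 95% Poisson intervals) by library (colours) in stellate cell or fibroblast-like cells (left) and in sinusoidal endothelium-like clusters 7 (circles) and 32 (squares, engineered MSC only) (right). F3, Thbs1 and Plaur are lower in engineered MSC than in PBS on the left, where the native MSC points rest on 24 cells; on the right Procr of engineered MSC lies near PBS in cluster 7 but not in cluster 32.

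The other genes of the pathway gave context by list. A list of 13 clotting genes held mainly liver-made zymogens, cofactors and fibrinogen chains, but also F8 and Vwf, genes of endothelial cells. All 13 could be read in hepatocyte-like cells of engineered MSC against PBS. Of these, 5 were at least 2-fold higher there (all genes, 13.7%) and none lower (10.1%), with a median log2 ratio of 0.65 against -0.05 for all genes. F2 (prothrombin) there was 60.3 CPM in PBS, 63.2 CPM in native MSC and 167 CPM in engineered MSC, and F9 was 6.55, 20.1 and 35.2 CPM. Most hepatocyte-like cells of engineered MSC lay outside cluster 12, the main hepatocyte-like cluster of PBS. The same list was higher in cells that do not make these proteins: 6 of 8 in monocyte-like cells (all genes, 5.86%) and 6 of 6 in neutrophil-like cells (all genes, 9.06%), beside 11 of 11 abundant hepatocyte transcripts in each. For example Fga, a fibrinogen chain, was 11.7 CPM in PBS, 36.0 CPM in native MSC and 98.4 CPM in engineered MSC in monocyte-like cells. In monocyte-like cells of engineered MSC against PBS, the plasminogen list had 6 of 11 genes higher (all genes, 5.86%) and 2 lower (7.06%). The higher ones included Plg (plasminogen), Serpinf2, Cpb2 and Hrg, which are made by hepatocytes.

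Genes around Plaur, F13a1 and Procr were read in the classes that hold them. Of 8 partners of the urokinase receptor, 7 could be read in monocyte-like cells of engineered MSC against PBS, 1 higher (all genes, 5.86%) and 3 lower (7.06%). Itgav, an integrin chain that binds the receptor and vitronectin, was 303 CPM in PBS, 124 CPM in native MSC and 149.9 CPM in engineered MSC. Tgm2, the tissue transglutaminase related to F13a1, had the opposite order to F13a1 over the macrophage-like class, at 841 CPM in PBS, 229 CPM in native MSC and 293 CPM in engineered MSC. Most of these cells lay in cluster 3 in PBS and in cluster 20 in the other libraries. Level and cluster makeup are thus mixed, and Tgm2 is not given within clusters. In sinusoidal endothelium-like cells the anticoagulants had 6 of 11 genes higher (all genes, 11.7%) and none lower (9.56%) in engineered MSC than in PBS. The list holds genes made by hepatocytes, among them Serpinc1 (antithrombin), at 5.61 CPM in PBS and 49.99 CPM in engineered MSC, and the hepatocyte transcripts summed to 301 CPM in cluster 7 of PBS and 3958 CPM in cluster 32 of engineered MSC. Tfpi, the tissue factor pathway inhibitor, was 231 and 343 CPM, and Pros1, the cofactor of activated protein C, 338 and 380.2 CPM. Thbd, the partner of Procr in protein C activation, was 236, 198 and 169 CPM there, without the gap seen in Procr. F8, the cofactor made by liver endothelium, was 464, 696 and 1053 CPM, and is itself among the leading genes of cluster 32.

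The 9 genes did not form 1 pattern over cells. Over 40 sums of class and library, on log CPM, F13a1 and Thbs1 were the most alike pair (Pearson r of 0.71, Spearman rho of 0.69), followed by F10 and F5 (0.70 and 0.65), while F10 and Procr had the lowest Pearson r (-0.40, rho of -0.31) and F5 and Plau the lowest rho (-0.38, r of -0.39). These sums share libraries, depth and free RNA, so the values are descriptions. Among all genes, F13a1 was most like Chil3 (r of 0.89), a monocyte marker used in naming, Mcub (0.89) and Ms4a6d (0.87). Plau was most like Vat1 (0.93), Rab3il1 (0.92) and Skp2 (0.90). F3 was nearest to Crispld2 (0.88), Inhba (0.85) and Steap4 (0.76), and Procr to Kitl (0.87), Adcy4 (0.86) and Exoc3l4 (0.85). F7 was nearest to Fam20c (0.85), Fabp3 (0.85) and Pf4 (0.81), F10 to Serpinb8 (0.81), Aifm2 (0.78) and Fn1 (0.76), and F5 to Padi4 (0.82), Lrg1 (0.81) and Nfe2 (0.79). Thbs1 was nearest to Cebpb (0.85), Ier3 (0.85) and Chil3 (0.84), and Plaur to Pfkfb4 (0.85), Ncf1 (0.85) and Cyp4f18 (0.84).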

How the data were processed

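Per the submitters' processing notes, reads were counted with Cell Ranger 7.1.0 on GRCm39. The authors deposited raw UMI counts per gene and barcode, 1 matrix for each of the 3 libraries, with 500 UMIs or more in every barcode. Cells were kept with at least 200 genes and at most 20% mitochondrial UMIs. The highest Scrublet scores were removed at 0.8% per 1000 barcodes, which took 923 barcodes in PBS, 1054 in native MSC and 973 in engineered MSC. The libraries were clustered together (scanpy 1.11.5, 2000 variable genes without the 9 members, 30 components, 15 neighbours, Leiden resolution 1, igraph 0.11.9) with no correction between libraries and no subtraction of free RNA.

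A cluster took the name of its best of 26 marker lists when the score was at least 0.5. The score also had to stand 0.5 above any list of another lineage, with at least 3 markers raised by over 1.5 times. Its 10 leading genes could not hold more markers of a class of another lineage than of its own lineage. Only clusters of low UMI counts needed a marker of their own class among these genes. The leading genes of clusters 7 (sinusoidal endothelium-like) and 12 (hepatocyte-like) held no marker of their class. The 2 monocyte lists were merged to 1 class, as were the lists of conventional dendritic cells, after the clusters were seen. T cell-like cells were not compared between libraries, since 1 of their clusters had more NK than T markers among its leading genes. Names rest on RNA only, and the authors' labels were not used here.

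UMIs were summed per class and library. A count of 0 is read against a floor of 3 counts. Correlations used log2(CPM + 10). Ratios and intervals were checked on independent Poisson counts drawn at the depths of the macrophage-like class. Such draws lack the clumping of UMIs in single cells, so they do not test the intervals for it. The named genes are the 9 members, genes of 13 fixed lists and the 3 most alike genes per member. Members and lists were chosen with earlier results of these data known, and the single classes set beside all genes were picked after their values were seen. Values of 1 list gene are not reported here. With 1 library per group there is no test. Alternatives were other filters, doublets kept, other resolutions, cells counted alike, other scaling, other count minimums and folds, and, chosen after seeing the data, single clusters and cells without a UMI of 6 platelet genes (not Pf4 or Ppbp).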

Additional observations from a re-analysis of the deposited data

Results flagged for a closer look

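Several values lay apart from the rest of their gene. Procr in engineered against native MSC had a log2 ratio of 1.10 in macrophage-like cells and of -3.25 in sinusoidal endothelium-like cells, and the opposite signs were not tested. Thbs1 in engineered MSC against PBS had a log2 ratio of 1.33 in macrophage-like cells, but of -2.41 in Kupffer cell-like, -4.25 in conventional dendritic cell-like, -1.33 in hepatocyte-like, -2.80 in sinusoidal endothelium-like and -2.87 in stellate cell or fibroblast-like cells. In hepatocyte-like cells it was -0.32 with each cell counted alike, under 2-fold, and -3.42 in cluster 12 alone. In macrophage-like cells it was 0.73 with each cell counted alike and -2.04 in cluster 20 alone. This difference between classes was not tested either.

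Some clusters outside the comparisons carried a member at or above its named classes. In PBS, Procr stood at 86.2 CPM in cluster 10, an unnamed cluster of low UMI counts, and at 90.4 CPM in vascular endothelium-like cells. The 181 peritoneal macrophage-like cells of native MSC, a class nearly limited to that library, had F10 at 404 CPM and F5 at 256 CPM. Vascular endothelium-like cells of native MSC had F5 at 145 CPM. F3 stood at 60.3 CPM in native MSC and 71.7 CPM in engineered MSC in the unnamed cluster with Mgp and Dcn among its leading genes. It stood at 95.1 CPM in cholangiocyte-like cells of engineered MSC.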

How the results depend on the processing

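No paired analysis was possible because each group has 1 library. The number of gene and class combinations past 2-fold, 33 in engineered MSC against PBS, was 21 when at least 100 UMIs were asked. The number in native MSC against PBS, 16, was 33 with no minimum count, and that in engineered against native MSC, 27, was 46 with no minimum and 16 at 100 UMIs. Fewer or more combinations can be read under these minimums. The other settings kept these counts within 1.5 times.

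The conventional dendritic cell-like class was the least stable. F13a1 there turned to a log2 ratio of 2.68 (engineered MSC against PBS) and 1.17 (against native MSC) at resolution 0.5, and to 1.99 and 1.42 with the members among the variable genes. In native MSC against PBS it turned to -0.39 at a mitochondrial limit of 10%, -0.56 with no limit and -0.16 at resolution 2. F10 there turned to -0.80, -0.79 and -0.25 under the same 3 settings in engineered MSC against PBS. In native MSC against PBS it turned to -0.19, -0.20 and -0.037, and to -0.018 with the members among the variable genes. F10 turned to -0.50 in B cell-like cells with doublets kept (engineered MSC against PBS), and to -1.08 in erythroid cell-like cells at resolution 2 (engineered against native MSC). The cause was not tested for these.

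Within cluster 20 of the macrophage-like cells, a setting chosen after seeing the data, F13a1 turned to -0.44 and Thbs1 to -2.04 in engineered MSC against PBS, and F10 to -1.31 and Thbs1 to -0.87 in native MSC against PBS. Here the cells differ by construction, since most cells of PBS in this class lie in cluster 3. Scaling by the median of ratios reversed none of the ratios. With 1 mouse a group, no setting measures the spread between animals.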
